A study of Caenorhabditis elegans with 2 samples.

Results

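Aminoacyl-tRNA synthetase genes were examined for binding of DPL-1 at their promoters in the worm Caenorhabditis elegans at L1, its first larval stage. The members were the protein-coding genes whose symbol in the Ensembl annotation of assembly WBcel235 is a single letter, then ars, a hyphen and a number. This rule uses names alone and no ChIP value, but the family was chosen with earlier results of these data known. The rule gave 32 genes of 19973. It leaves out synthetase genes with other symbols, among them glp-4 and Y105E8A.20, both bound by the call used below. In 20 the enzyme was placed in the cytosol and in 12 in mitochondria, with gars-1, hars-1, kars-1 and tars-1, whose genes serve both compartments, counted as cytosolic. The placement came from the RefSeq product name for 14 genes and from the number in the symbol and background knowledge for 18, among them vars-1, the mitochondrial valine enzyme.

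The data were chromatin immunoprecipitation and sequencing (ChIP-seq) of DPL-1, in 1 group of 2 biological replicates of whole larvae of both sexes. Both came from strain YL448, which carries the unc-119(ed3) mutation, a rescuing unc-119 (+) copy and the transgene vrIs83, in which the promoter of the intestinal esterase gene ges-1 drives DPL-1 with a C-terminal GFP and FLAG tag. The antibody is labelled dpl-1, with no epitope named, and native DPL-1 of all tissues and the intestinal fusion protein cannot be told apart. The promoter window ran from 500 bp before to 200 bp after an annotated transcript start, and a gene was called bound when a summit of the authors' list of 3726 peaks past the irreproducible discovery rate (IDR) threshold lay in it. Signal is the authors' value per peak, in arbitrary units that can be compared within a list only. Read depth was not given in the lists, no condition was compared with another, and genes are not replicates, so counts and medians are set beside those of all genes without a p-value.

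Each aminoacyl-tRNA synthetase joins 1 amino acid to its tRNAs, the step that lets the ribosome read the genetic code. Cytosolic enzymes charge the tRNAs made in the nucleus, and a second, mostly separate set encoded by nuclear genes is imported to charge the tRNAs of mitochondria. DPL-1 is the DP partner of E2F factors and part of DREAM, a complex known for repressing cell cycle genes. Synthetase genes are housekeeping genes that growing cells need at all times.

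A DPL-1 peak lay at the promoter of 12 of the 32 synthetase genes (37.5%), against 14.3% of all protein-coding genes (2852 of 19973). Each annotated start had its own window, and the median number of starts was 2 for synthetase genes and 1 for all genes, with no adjustment. Both compartments were represented, with 5 of 12 mitochondrial enzymes (41.7%) and 7 of 20 cytosolic ones (35.0%), and the difference between them was not tested. Which compartment had the higher share turned under other rules, for example to 13 of 20 cytosolic against 5 of 12 mitochondrial members with a window from 1000 bp upstream. The bound members were vars-1, sars-2, ears-2, aars-1 and pars-2 among mitochondrial enzymes and aars-2, nars-1, mars-1, tars-1, kars-1, dars-1 and hars-1 among cytosolic ones. The median signal was 130 over the 12 bound members, against 154 over all bound genes, and it was 185 for the mitochondrial and 128 for the cytosolic group, with ranges that overlapped. Whether members stood below or above all bound genes turned with the rule, at 131 against 127 with summits given to the nearest start, 80.8 against 64.3 with the 10000 strongest pooled peaks, and 290 against 116 on promoters that overlap no other. The 2 highest signals of the 32 genes belonged to mitochondrial enzymes.

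**Figure D1:**
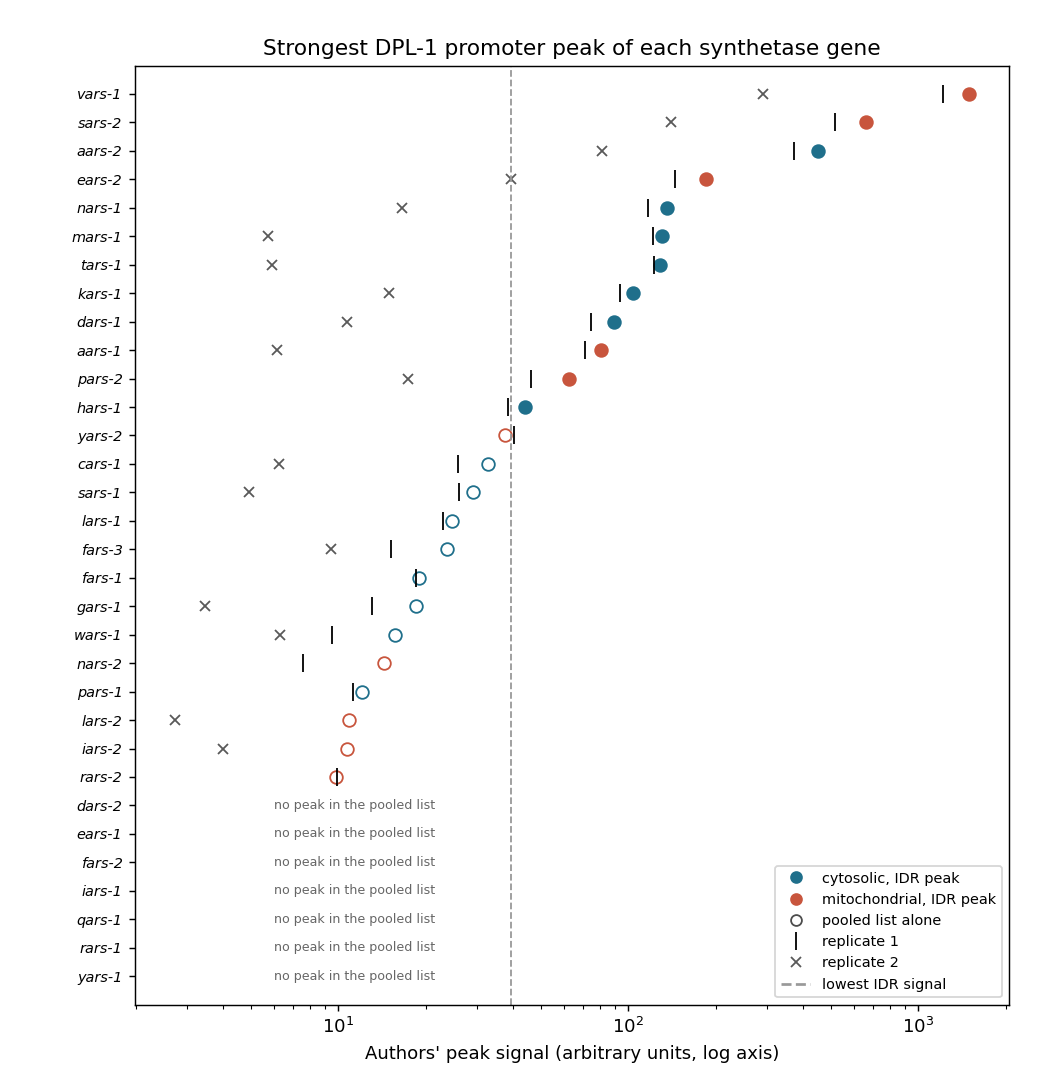
Signal of the strongest promoter peak of each of the 32 synthetase genes (x axis, arbitrary units, log scale), with filled circles for IDR peaks, open circles for peaks found in the pooled list alone, and the matched peaks of replicate 1 and replicate 2 as a bar and a cross. Blue marks cytosolic and red mitochondrial enzymes. vars-1 stands highest at 1496, hars-1 is the last above the dashed line at 39.5 and yars-2 the first below it, and 7 genes have no pooled peak.

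The mitochondrial valine enzyme gene vars-1 (WBGene00006935, on the plus strand at V:8031411-8035025) had the strongest peak of the family. Its signal was 1496 at V:8031201-8031509, rank 101 of the IDR list, with 1212 in replicate 1 and 291 in replicate 2. The ranks in the replicates' own lists, 101 and 98, were nearly the same, and the summit lay 50 bp upstream of the only annotated start. The mitochondrial serine enzyme gene sars-2 (WBGene00005662, on the plus strand at IV:4357636-4359947) came next. The sars-2 peak at IV:4357356-4357604 had a signal of 660 (rank 371), with 515 in replicate 1 (rank 404) and 141 in replicate 2 (rank 291), and its summit lay 152 bp upstream. The gene for the mitochondrial glutamate enzyme, ears-2, had a signal of 185 (rank 1099, IV:390427-390581), with 144 in replicate 1 (rank 1175) and 39.5 in replicate 2 (rank 855). Its summit lay 31 bp upstream, in the 91 bp that separate it from the divergent gene uncp-18, so it counted for both. In each of these 3 promoters the rank was better in replicate 2 than in replicate 1. aars-1, the mitochondrial alanine enzyme gene, had a weaker peak with a signal of 80.8 (rank 2109, II:11464484-11464803), of 71.1 in replicate 1 and 6.16 in replicate 2. There the replicates parted, at ranks 2081 and 5630, and the summit, 147 bp upstream, was shared with the divergent gene rga-1.

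The DNA under the summits is shown for the members whose peaks anchor these comparisons, as 30 bases read along the strand of the gene from the RefSeq genome of WBcel235. GCGC, the 4 letters shared by the strongest of them, is in capitals, and where these 30 bases lack it the capital marks the summit base. The first 3 belong to mitochondrial enzymes whose ranks held in both replicates, and kars-1 is a cytosolic one with a like order in both. Among the 11 bound members matched in both replicates, mars-1 and tars-1 are those for which the replicates differed most. Whether GCGC goes with like ranks in the replicates was not tested, and the members shown cannot decide it. Within 50 bp of the summit tars-1 has GCGC, while mars-1 and aars-1, whose replicates also parted, have none. nars-1 has none either, with a like order in both replicates. The 30 bases at the dars-1 summit, not shown, also lack it with a like order in both, though GCGC lies within 50 bp.
vars-1 (V:8031347-8031376, plus strand): ttagtttcgcgacaggGCGCatttgcttcg
sars-2 (IV:4357470-4357499, plus strand): cgcaaatcttgatgtgcgatggaGCGCact
ears-2 (IV:390485-390514, minus strand): gcgaaaagccGCGCgGCGCattgcgaatga
kars-1 (II:7072712-7072741, minus strand): cctcattaaatacaaacGCGCtctaaagcc
mars-1 (IV:11635756-11635785, minus strand): gtatccattttgtgtAgtgactccataagg
tars-1 (II:11694639-11694668, minus strand): aaacgcaccaaggggCtgacgcgtttctcg

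Strings known from E2F and DREAM sites were counted at the summits, where 12 members are too few to give a direction. The E2F-type strings were TTCCCGC, its central variant TTCGCGC, and those with G as the third letter, TTGCCGC as well as TTGGCGC. Searched on both strands within 50 bp of the summit, any of them occurred at 1 of the 12 members' summits (8.33%), that of aars-2, where TTCCCGC lay 17 bp from the summit, and at 395 of 2250 other promoter summits (17.6%). With longer strings of 8 letters the shares were 8.33% and 7.51%. TTTGAA or TTCGAA, letters of the CHR element that the DREAM subunit LIN-54 binds, occurred at 3 of 12 (25.0%) and at 737 of 2250 (32.8%). The 3 were sars-2, aars-2 and hars-1. The shorter GCGC, chosen after the sequences were seen, lay within 50 bp of 8 of 12 members' summits and of 60.1% of the other promoter summits. Over promoter windows of 701 bp around the outermost start, GCGC was present in 10 of 12 bound and 7 of 20 unbound synthetase genes. Over all genes the same window held it in 80.0% of the bound and 46.5% of the unbound. The E2F-type strings of 7 letters lay in that window in 2 of 12 bound and 1 of 20 unbound members. Over all genes the shares were 30.3% of the bound and 17.6% of the unbound. TTTGAA or TTCGAA lay in 11 of 12 and 19 of 20 members, against 92.2% and 92.4% over all genes. A match of letters describes the sequence and is not evidence of a site.

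Among cytosolic enzymes the gene for the alanine enzyme, aars-2 (WBGene00000197), stood apart from the other 6 bound members. Its signal was 450 at I:3982805-3983043 (rank 538), with 374 in replicate 1 (rank 532) and 81.1 in replicate 2 (rank 512), and the summit lay 268 bp upstream. The replicates gave it nearly the same rank. Next came nars-1, for asparagine, with a signal of 136 (rank 1395), of 117 in replicate 1 and 16.6 in replicate 2. The lysine enzyme gene kars-1 had a signal of 104 (rank 1726), with 93.6 in replicate 1 and 15.0 in replicate 2, and dars-1, for aspartate, one of 89.0 (rank 1942), with 74.1 and 10.7. In these 3 the rank in replicate 2 was from 1658 to 2477, within the 3726 strongest peaks of that list.

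The methionine and threonine enzyme genes had peaks that rested mainly on replicate 1. The mars-1 peak (signal 131, rank 1430) had 121 in replicate 1 (rank 1334) and 5.74 in replicate 2 (rank 6477). For tars-1 (signal 128, rank 1456) the values were 122 (rank 1327) and 5.90 (rank 6086). Signal was thus 21.2 and 20.7 times as high in replicate 1, where the 3231 IDR peaks with a match in each list had a median of 5.32 (10th to 90th percentile 3.30 to 10.7). aars-1, at 11.5, also lay above that range. pars-2, the mitochondrial proline enzyme gene (signal 62.6, rank 2577), lay below it at 2.66, with 46.2 in replicate 1 and 17.4 in replicate 2, and had the better rank in replicate 2 (1603 against 2931). The other 7 members with a peak in both lists lay inside it. The histidine enzyme gene hars-1 (signal 44.0, rank 3423) had 38.5 in replicate 1 and no summit within 100 bp in replicate 2. With the 3726 strongest peaks of replicate 2 alone, 9 of 32 members were called (12.8% of all genes), losing mars-1, tars-1, aars-1 and hars-1 and gaining fars-3. With those of replicate 1 alone 13 were called (14.3% of all genes), the 12 members and yars-2. The IDR list draws on both replicates. Replicate 1 had the higher signal at every member matched in both, as at most IDR peaks so matched (10th percentile of the ratio 3.30). How the signal of each list was scaled is not stated.

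**Figure D2:**
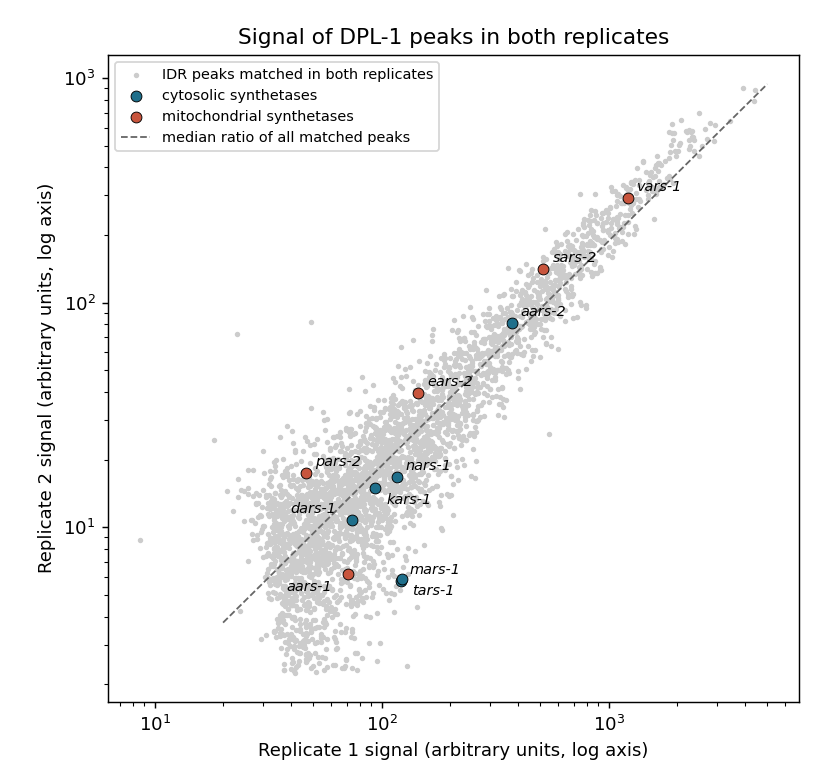
Signal in replicate 1 (x axis) and replicate 2 (y axis), arbitrary units on log axes, for the 3231 IDR peaks matched in both lists (grey) and the 11 synthetase peaks among them (blue cytosolic, red mitochondrial). The dashed line is the median ratio of 5.32, and mars-1 and tars-1 lie farthest below it while pars-2 lies farthest above it among the synthetase genes.

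Summits lay closer to the start in genes of mitochondrial enzymes. The 5 lay from 152 to 17 bp upstream of the nearest annotated start of the gene (median -50 bp) and the 7 of cytosolic enzymes from 360 to 64 bp upstream (median -283 bp), against a median of -174 bp over all bound genes. The groups overlapped through dars-1 at -119 bp and hars-1 at -64 bp, and the difference was not tested. Ribosomal protein genes were ordered in the same way, with a median of -288 bp for the 70 bound genes of cytosolic and -158 bp for the 39 of mitochondrial ribosomes. The tars-1 summit lay 360 bp upstream of an inner start, and 1004 bp downstream of the outermost one. For every other bound member the distance was to the outermost start.

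**Figure D3:**
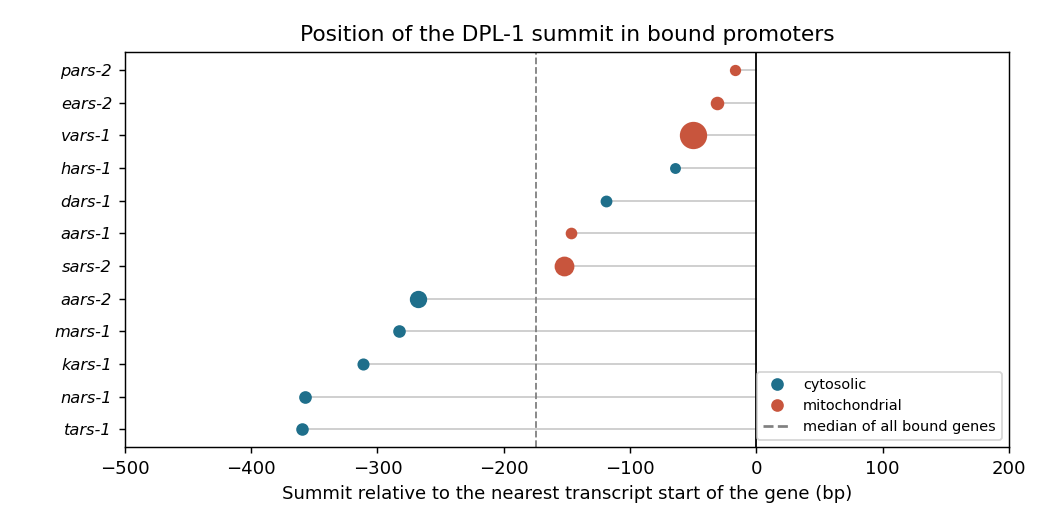
Distance in bp from the DPL-1 summit to the nearest transcript start of each of the 12 bound genes (x axis, negative upstream), with point area rising with signal and colours for cytosolic (blue) and mitochondrial (red) enzymes. All 12 lie upstream of the start, and the 5 mitochondrial ones lie at or above -152 bp, nearer than the dashed median of all bound genes at -174 bp.

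Sharing of promoters with a neighbour was close to that of all bound genes. The summit also lay in the promoter window of another gene for 6 of 12 members, compared with 44.9% of all bound genes. The member's own start was the nearest to the summit in 9 of 12, compared with 77.3% of all bound genes, and in the other 3 the neighbour's was. The dars-1 summit lay 62 bp upstream of ctr-9, which codes for a subunit of the PAF1 elongation complex, and 119 bp upstream of dars-1. The nars-1 summit lay 321 bp upstream of nduf-6, a respiratory complex I gene, and 357 bp upstream of nars-1. The tars-1 gene lies inside kel-1, which is on the opposite strand. Its summit lay 175 bp upstream of an annotated start within kel-1. The others of the 6 were ears-2, aars-1 and hars-1, whose own starts were nearest. With each summit given only to its nearest start within 1000 bp, 11 members were called (13.0% of all genes), without dars-1, nars-1 and tars-1 and with cars-1 and gars-1. On the 18 members whose promoter overlaps that of no other gene, 4 were called, namely vars-1, aars-2, mars-1 and kars-1, or 22.2%, against 8.42% of the 15622 such genes.

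Of the 20 synthetase genes that were not bound, 13 had a peak in the pooled list of 30000 below the IDR threshold and 7 had none in the window. Nearest to the threshold were hars-1 inside it, at 44.0 (-log10 q 2.99), and yars-2, the mitochondrial tyrosine enzyme gene, outside it at 37.4 (rank 3878, -log10 q 2.71), where the lowest IDR signal was 39.5. The yars-2 peak had 40.4 in replicate 1 and no match in replicate 2. The cysteine enzyme gene cars-1 followed at 32.8 (25.9 and 6.27 in the replicates), then sars-1, for serine, at 29.2 (26.2 and 4.93), and the leucine enzyme gene lars-1 at 24.6 (22.9, with no match in replicate 2). fars-3, for the beta subunit of the phenylalanine enzyme, reached 23.7, with 15.2 in replicate 1 (rank 8499) and 9.47 in replicate 2 (rank 2823), where it ranked higher. Its partner fars-1, the other subunit, had 18.9, gars-1, for glycine, 18.5 and wars-1, for tryptophan, 15.6. The remaining 5, nars-2, pars-1, lars-2, iars-2 and rars-2, lay between 14.4 and 9.84, close to the lowest value of the list at 9.07. dars-2, ears-1, fars-2, iars-1, qars-1, rars-1 and yars-1 had no pooled peak in the promoter. A pooled peak of any height lay in 25 of 32 synthetase promoters (78.1%) and in 37.6% of all promoters. These shares depend on the number of annotated starts, which was higher in synthetase genes. Some of the 25 counted only through an inner start. Those of gars-1, lars-2 and nars-2 lay 1530, 1306 and 8125 bp downstream of the outermost one.

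Several cytosolic enzyme genes had an IDR summit outside the window but within 1000 bp of an annotated start. It lay 527 bp upstream of qars-1, for glutamine (signal 102), and 579 bp upstream of iars-1, for isoleucine (79.2), in each case nearer to a divergent gene, Y41E3.7 and pges-2. The summit 853 bp upstream of cars-1 had a signal of 190 (rank 1068), higher than 9 of the 12 bound members, and no other start was nearer. That at fars-1, 901 bp upstream (238, rank 896), lay 141 bp upstream of rbm-5. In gars-1 a weak summit (42.8) lay between the 2 annotated starts, 621 bp downstream of the outer one. With promoters from 1000 bp upstream, 18 of 32 members were called (56.3%, against 17.3% of all genes), and the 6 gained, the 5 above and rars-1, were all cytosolic, which gave 13 of 20 cytosolic and 5 of 12 mitochondrial members. With the 10000 strongest pooled peaks in place of the IDR list, 19 were called (59.4%, against 22.7%). With the stronger 1863 IDR peaks 8 were called (25.0%, against 9.36%), and with any overlap of the peak 14 (43.8%, against 15.3%), the added ones being qars-1 and iars-1.

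A gene on the same strand ended within 250 bp upstream of 7 of 12 mitochondrial members, 3 of 20 cytosolic ones (15.0%) and 13.8% of all genes, with no test of these shares. This is a spacing usual in worm operons, whose genes are transcribed together from the first promoter. The annotation used here does not mark operons, and the limit of 250 bp was chosen after the values were seen. Of these 10 synthetase genes 1 was bound, vars-1, which lies 196 bp downstream of oma-2, as were 7.45% of the 2751 genes of the genome with this layout. In 5 of the 9 others, nars-2, lars-2, dars-2, rars-1 and yars-1, the first gene of the run was bound, where over all unbound genes with the layout the share was 37.7%. For nars-2 that summit (signal 90.4) lay 134 bp upstream of the first gene, Y66D12A.21, but nearer to spe-6, 52 bp upstream of it. The strongest such peak had a signal of 982 (rank 216), 258 bp upstream of F10C2.4 and 7447 bp from the start of dars-2. The next, of 672 (rank 361), lay 136 bp upstream of rpb-8, an RNA polymerase subunit gene that ends 65 bp before rars-1, the cytosolic arginine enzyme gene. The yars-1 gene lies 109 bp downstream of Y105E8A.20, named mars-2 in RefSeq for the mitochondrial methionine enzyme, whose promoter held a summit 26 bp upstream with a signal of 76.7. Where the upstream neighbour was on the opposite strand and within 1000 bp or overlapping, 7 of 12 synthetase genes were bound, and 34.4% of all such genes. The 7 include tars-1, which lies inside its neighbour kel-1. In the remaining layouts 4 of 10 were bound, and 9.14% of all such genes.

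Divided by enzyme family, a split made after the values were seen, class II synthetases were bound at 9 of 17 promoters and class I synthetases at 3 of 15. The 2 classes have unrelated catalytic folds. The 3 of class I were vars-1, ears-2 and mars-1. Among cytosolic enzymes the counts were 6 of 11 in class II (54.5%) and 1 of 9 in class I (11.1%). Among mitochondrial ones they were 3 of 6 and 2 of 6. A pooled peak of any height lay in all 11 promoters of cytosolic class II and in 4 of 9 of class I (44.4%), against 37.6% of all genes. The order was reversed among mitochondrial enzymes, with 4 of 6 of class II and 6 of 6 of class I. By chromosome, 3 of 9 members were bound on I (21.6% of all genes there), 3 of 5 on II (14.2%), 1 of 6 on III (22.9%), 4 of 8 on IV (13.7%) and 1 of 4 on V (9.37%), and no member lies on X. No tRNA, snoRNA or snRNA gene lay within 200 bp of any of the 25 members' peaks, with no share over all promoter peaks to set beside this.

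Other parts of the translation machinery were bound at a higher share of promoters. Cytosolic ribosomal protein genes were bound at 70 of 81 (86.4%, median signal 336), translation factors at 32 of 42 (76.2%, 227) and mitochondrial ribosomal protein genes at 39 of 70 (55.7%, 119). Synthetase genes, at 37.5% with a median of 130, were thus between these and all genes in share, and close to mitochondrial ribosomal proteins in height, with no test of these differences. A list of 20 genes was drawn up by hand for tRNA charging, modification, export or use. Of these, 19 matched the annotation and 12 were bound (63.2%, median signal 158). The tie of homt-1 to tRNA was not checked, and glp-4, bound and on this list, is itself a synthetase gene. The summit was shared with another gene in 8 of the 12, and on promoters that overlap no other the list had 2 of 8 bound, where synthetases had 4 of 18. The same counts were 22 of 28 for cytosolic ribosomal proteins, 13 of 20 for translation factors and 15 of 38 for mitochondrial ribosomal proteins. The strongest were gcn-1 (signal 1834, rank 65, with 1413 in replicate 1 and 427 in replicate 2) and gcn-2 (1422, rank 113, with 1141 and 279). GCN-2 is the kinase that responds to uncharged tRNA, the substrate of the synthetases, and GCN-1 is its activator. atf-4, the transcription factor gene downstream of them, had a signal of 173, and tufm-1, tufm-2, tsfm-1 and gfm-1, for mitochondrial elongation factors, had from 126 to 176. xpo-3, whose product exports tRNA, had 55.2, and glp-4, the gene for the other valine enzyme, had 120, 454 bp upstream. nsun-2, elpc-3, elpc-4, tut-1, tut-2, hpo-31 and homt-1 were not bound.

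**Figure D4:**
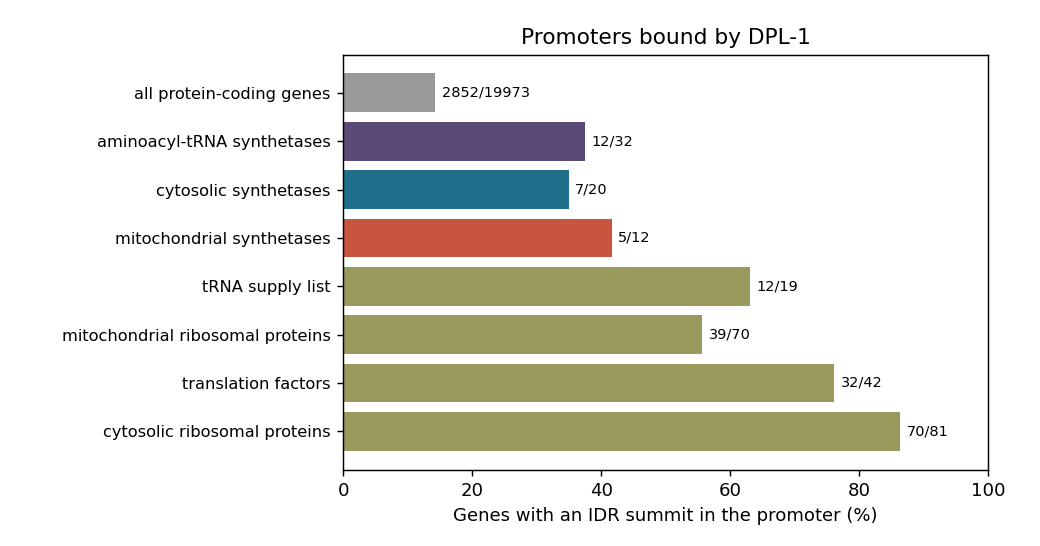
Share of genes with an IDR summit in the promoter (x axis, percent), with bound and total genes printed at each bar. The synthetase bar of 37.5% stands above all protein-coding genes at 14.3% and below the other translation groups, which run from 55.7 to 86.4%.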

How the data were processed

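DPL-1 ChIP-seq peak lists of 2 biological replicates, grouped by their labels' description, were used on build ce11, whose coordinates are those of WBcel235. Per the file notes deposited with the samples, each replicate list was called on that replicate's alignment with a control, the pooled list on both alignments, and the IDR list was made from these 3. Aligner and peak caller are not given in the sources used here. How the signal deposited by the authors was scaled is not stated. The summit offset deposited by the authors gives the position within a peak. The -log10 q deposited by the authors was equal to its highest value of 3.64 in 2162 pooled peaks, so signal ranked the peaks. Lists on ce10 were not used here.

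Transcript starts of protein-coding transcripts came from Ensembl release 115 (29314 starts), sequence and product names from RefSeq. A gene took its strongest summit in the window. Replicate peaks were matched to a summit within 100 bp, taking the strongest. The members and gene lists were chosen with earlier results of these data known. Every member is reported, with full values for the 8 strongest bound members and the 4 strongest mitochondrial ones, and the rest more briefly. Counts, medians and shares were computed across all genes without tests, since there is a single group. The split by enzyme class, the gene order limit and the string GCGC were chosen after values were seen. Promoter assignment was checked on simulated peaks. Alternatives were those in the closing section. Python 3.11.15, numpy 2.4.6, pandas 2.3.3 and matplotlib 3.10.9 were used.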

Additional observations from a re-analysis of the deposited data

How the results depend on the processing

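No paired analysis was possible because the series has a single group. The number of bound members, 12, moved by over 1.5 times with the 10000 strongest pooled peaks (19) and on promoters that overlap no other (4 of 18). For cytosolic members, 7 at first, the count became 13 with promoters from 1000 bp upstream, 13 with the pooled peaks, 3 of 11 on promoters that overlap no other, and 4 of 16 without the genes used in both compartments. For mitochondrial members, 5 at first, it became 3 with the stronger 1863 IDR peaks and 1 of 7 on promoters that overlap no other. With compartment by symbol number alone the counts were 8 of 21 and 4 of 11. The order of the compartments by share thus turned with the window, the pooled peaks, any overlap (9 of 20 against 5 of 12), the number in the symbol and shared promoters, and was equal at 25.0% with the stronger peaks. Leaving out 1 replicate gave 9 to 13 bound members, 5 to 7 cytosolic and 4 to 6 mitochondrial. The median signal of bound members, 130, became 80.8 with the pooled peaks and 290 on promoters that overlap no other, where the medians of all bound genes were 64.3 and 116, and was 131 against 127 with the nearest start. It ranged from 17.4 to 117 in 1 replicate alone, on other scales. The count of E2F-type strings at 12 summits, 1, was 1 with 100 bp on each side (22.3% of other promoter summits) and with strings of 8 letters (7.51%), where the members' share of 8.33% was no longer the lower one, and 8 with GCGC, which was added after seeing the data. Unknown read depth limits what can be said of weak peaks.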
